A study of Mus musculus with 6 samples.

Results

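The genes described here are the heat shock proteins and cochaperones of mouse melanoma cells. Members were the protein-coding genes whose symbols begin with Hspa and a digit, Hspb, Hsph, Hsp90a, Hspd1, Hspe1 or Dnaja, Dnajb or Dnajc and a digit, together with Bag1 to Bag6 and Hsf1, Hsf2 and Hsf4. Hspa5, Dnajb9, Dnajb11 and Dnajc3, which work in the endoplasmic reticulum (ER), were left out by the rule. It took in 78 of the 54838 genes in the table. Most act in the cytosol, but a choice by symbol also brings in proteins of other compartments, such as the mitochondrial Hspa9, Hspd1 and Hspe1 and the ER proteins Hspa13 and Dnajc10, and Hspbap1, which is not itself a chaperone.

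After enrichment for mRNA, RNA of B16F10 cells, a pigmented mouse melanoma line, was sequenced in bulk from 3 control and 3 fenofibrate libraries, described in the series as biological triplicates. Fenofibrate, a lipid-lowering fibrate whose active acid switches on the nuclear receptor PPARα, was given at 50 µM. The control vehicle and the time of treatment are not given in the sources used here, and the labels name no other allele or agent for any of the 6 libraries. The field for the cell line gives a name of its own to each library, from B16F10 to B16F15, so libraries were grouped by title, and if that field is literal, line and treatment cannot be told apart.

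Chaperones bind unfolded stretches of protein and release them to fold. HSP70 proteins do this in cycles of ATP hydrolysis: J proteins (the Dnaj genes) bring clients and speed hydrolysis, and nucleotide exchange factors such as the HSP110 and BAG proteins reset the cycle. HSP90 acts later on signalling proteins, including kinases on which melanomas depend, small heat shock proteins hold unfolded proteins without ATP, and heat shock factor 1 (Hsf1) switches on many of these genes under protein stress.

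Depth ran from 13540038 to 14710856 counts per library, so a count of 0 in one library allows up to 0.204 to 0.222 CPM, a count scaled to its library's total (counting error only). Levels below are normalised CPM, CPM after scaling libraries by TMM, and values are given in the order control 1, 2, 3 and then fenofibrate 1, 2, 3. A gene is said to have risen or fallen where edgeR's quasi-likelihood test, with Benjamini-Hochberg adjustment over the 13629 genes tested, gave an adjusted p below 0.05. The melanocyte markers fixed for the tissue check summed to 22260 to 23685 CPM in control and 27255 to 28877 CPM in fenofibrate, and 7 of 9 rose. Fibroblast markers summed to 15.0 to 18.2 CPM in control and 8.84 to 10.7 CPM in fenofibrate, and leukocyte markers to 2.13 to 3.41 and 4.18 to 6.94 CPM, with Adgre1, Itgam and Cd3e at 0. Keratinocyte and epithelial markers summed to 1.84 to 2.13 CPM in control and 1.36 to 2.22 CPM in fenofibrate, with Krt5 and Trp63 at 0 in all 6 libraries. The part of these marker shifts in the results below was not tested. In bulk RNA, fewer cells of a type and less RNA per cell cannot be told apart.

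Of the 78 members, 74 had a count in at least 1 library and 67 passed the filter on low counts. Fenofibrate libraries had higher levels of 17 members and lower levels of 9, and 41 were not called. The 26 called members were 38.8% of those tested, against 39.1% of all genes tested (19.5% higher and 19.5% lower), so the share called is that of the transcriptome and is not a result about chaperones. The split between the directions depends on the scaling: with library totals in place of TMM, 14 members were called higher and 14 lower, and limma on log2 FPKM called 14 and 12. Values of the control and the fenofibrate libraries did not overlap for 34 tested members, or 50.7%, against 53.3% of all genes. The differences were also small: the median size of the log2 fold change was 0.16 among members and 0.25 among all genes. Of the 67 tested members, 7 were called with at least a 1.5-fold difference, against 1907 of the 13629 genes tested (14%). The signed median was -0.02 among members and -0.0021 among all genes.

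By role, the small heat shock proteins had 4 of 6 tested members higher and 0 lower, and the class B J proteins 4 of 8 higher and 0 lower. The shares called were 66.7% and 50%, against 39.1% of all genes tested (19.5% higher and 19.5% lower). When a library was left out, 1 to 4 small heat shock protein genes were called higher (1 without control replicate 1 and 2 without fenofibrate replicate 1 or 2), and 4 to 5 class B genes. Of 13 tested members on a list of classical heat-induced genes, 4 rose, Dnajb4 among them, 3 fell and 6 were not called. These calls were 53.8%, against 39.1% of all genes tested. The classical heat-inducible genes Hspa1b, Hspb1, Dnajb1 and Hsp90aa1 were not called, and the HSP110 gene Hsph1, the J protein gene Dnaja1 and the constitutive Hsp90ab1 fell. Among the 26 called members, 17 were called under all 13 alternative analyses, 11 of them higher and 6 lower. The calls of Hspa4, Dnaja1, Dnajc27, Dnajc7, Dnajc8, Bag6, Hspb11, Hspb7 and Hspb8 were lost under at least 1 of these, and none of the called members changed sign. Without fenofibrate replicate 3, 15 members were called higher and 11 lower, and without control replicate 2, 13 and 6.

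**Figure D1:**
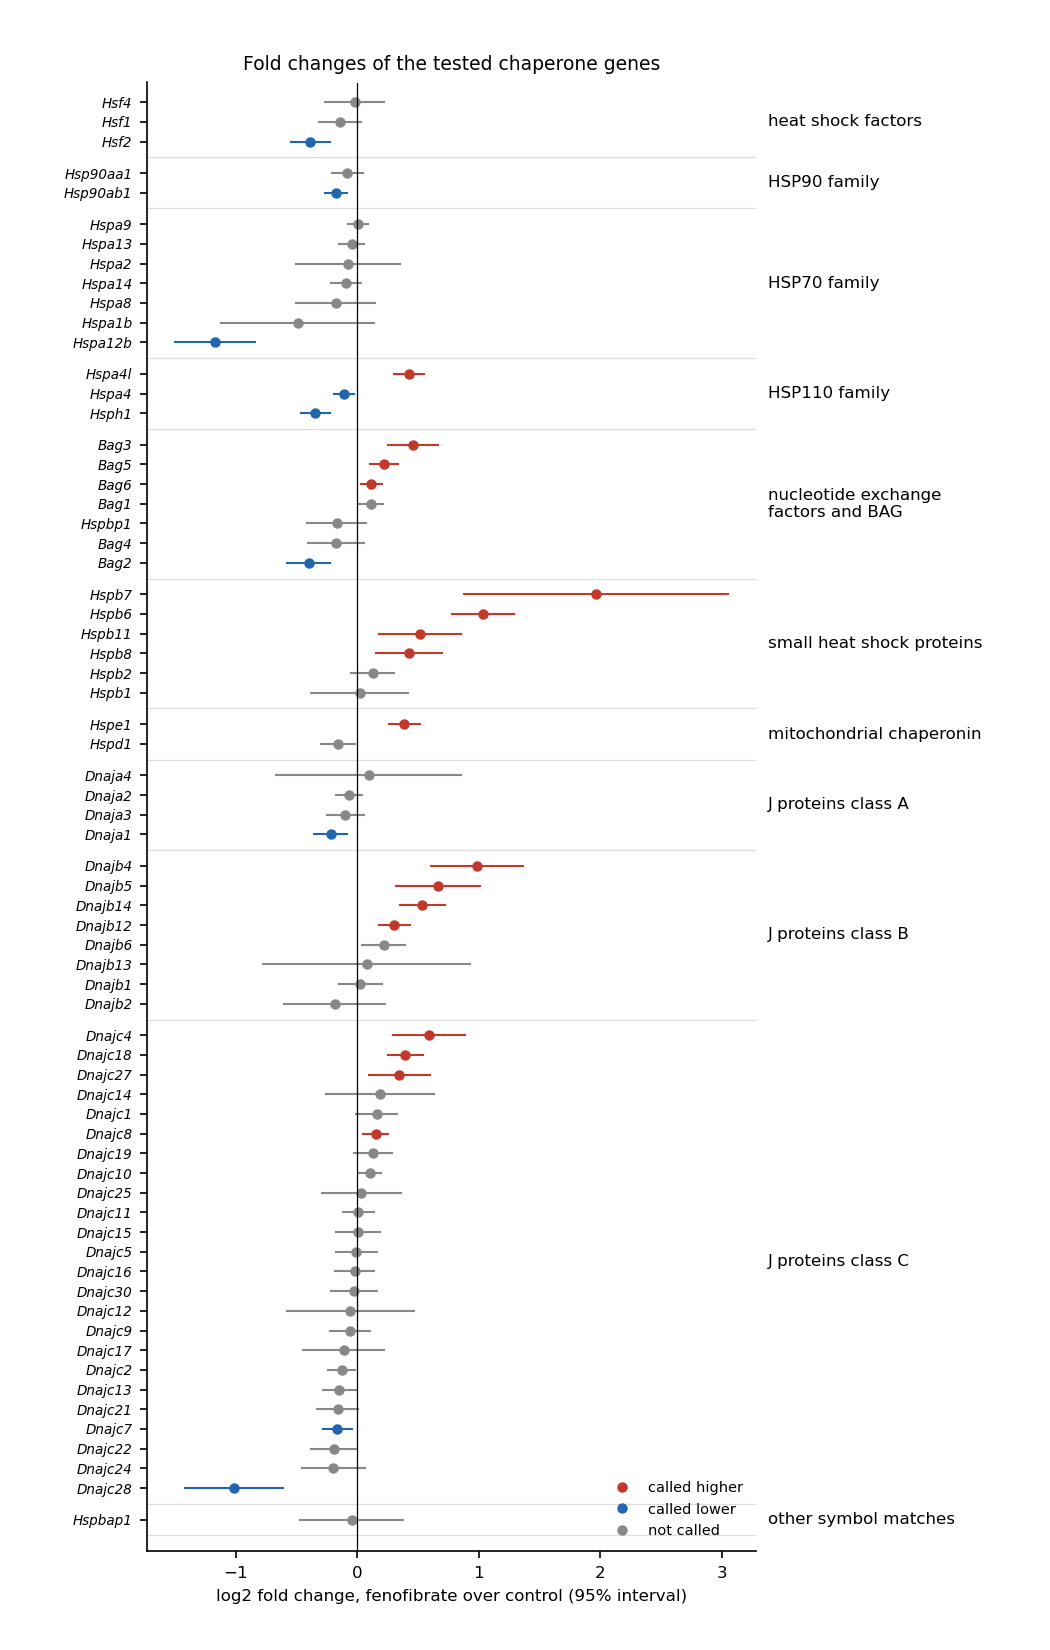
Log2 fold change (fenofibrate over control, x axis) of the 67 tested chaperone and cochaperone genes, grouped by role; points are estimates from edgeR and lines their 95% intervals, coloured by call. Small heat shock proteins (6 tested) and class B J proteins (8 tested) hold 4 higher genes each and none lower, while most class C J proteins lie near 0. Of all genes tested, 19.5% were called higher and 19.5% lower.

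Promoters were searched for the element that Hsf1 binds, because heat-inducible chaperone genes are known for it. RefSeq promoters (GRCm38.p6) were matched by symbol for 61 of the 78 members, which have 79 annotated promoters, and the 250 bases upstream of each start were read. Hsf1, Hsp90aa1, Hsp90ab1, Hspa8 and Hspa9 were among the members not matched, so their promoters were not searched. The core of the element was taken as GAANNTTC or TTCNNGAA, each of which reads the same on both strands, and the longer form as 3 alternating units, which contains both cores and so overlaps them. The core was in 16 of the 79 member promoters (20.3%) and in 12.8% of all 32851 promoters. The longer form was in 4 member promoters (5.06%), belonging to Dnajb6, Hspd1 and Hspe1, against 0.466% of all promoters. These 4 rest on 2 stretches of DNA, since both Dnajb6 promoters hold the same window and Hspd1 and Hspe1 share one. The 16 promoters with a core repeat these stretches too, and both Hsph1 promoters hold the same window. The core is therefore on fewer than 16 separate stretches, and the share of 20.3% counts some of them more than once. CCAAT or its reverse complement ATTGG was in 30.4% of member promoters and 33.9% of all. Of the 12 members with a core that were tested, 4 were higher with fenofibrate, 2 were lower and 6 were not called, so a match goes with no single direction here. Of the 39 tested members without a core, 12 were higher, 6 were lower and 21 were not called. Over all genes tested, 19.5% were higher and 19.5% lower. The windows below are shown because they belong to genes on which the results turn, with the core units in capitals and the rest in lower case, 5′ to 3′ on the gene's strand.
Hspe1: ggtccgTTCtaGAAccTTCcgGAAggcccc
Dnajb6: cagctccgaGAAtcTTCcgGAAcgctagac
Hspa1a and Hspa1b: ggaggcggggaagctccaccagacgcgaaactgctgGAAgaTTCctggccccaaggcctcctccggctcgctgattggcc
Hspb1: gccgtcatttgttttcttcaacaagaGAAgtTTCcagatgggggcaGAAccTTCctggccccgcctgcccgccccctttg
Hsph1: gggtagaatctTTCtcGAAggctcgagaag
Dnaja1: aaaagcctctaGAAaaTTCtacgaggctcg
Dnajb4: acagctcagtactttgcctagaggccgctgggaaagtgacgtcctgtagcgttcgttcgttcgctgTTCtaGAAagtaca
Hspb6: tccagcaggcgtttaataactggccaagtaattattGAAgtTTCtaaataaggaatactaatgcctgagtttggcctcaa

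These lie at chr1:55088053-55088082 (+ strand) for Hspe1, chr5:29735843-29735872 (+) for Dnajb6, chr5:135887776-135887855 (+) for Hspb1, chr5:149636351-149636380 (-) for Hsph1, chr4:40722333-40722362 (+) for Dnaja1, chr3:152193846-152193925 (-) for Dnajb4 and chr7:30553145-30553224 (+) for Hspb6. The window of Hspa1a is at chr17:34972217-34972296 and that of Hspa1b at chr17:34959299-34959378, both on the - strand, and their letters are identical. Over the whole 250 bases these promoters share 247 (98.8%). The Hspe1 window is also that of Hspd1, read there on the - strand, since both genes start from 1 stretch of chromosome 1 in opposite directions. Some genes have several annotated starts. The Dnajb4 core lies upstream of a start 16457 bases inside the gene, and its promoter near the gene's outer end holds 0 cores. The Hspb6 core belongs to a start 1123 bases inside the gene, and its other promoter holds 0. Of the promoters of Dnaja1, 1 of 3 holds the core, and of those of Hspd1, 1 of 2. A match describes the letters only and is not a measured binding site.

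Hsf1, the main activator of the heat shock response, was measured at 59.3, 57.0 and 60.9 in control and 48.5, 54.9 and 57.5 normalised CPM in fenofibrate. The groups overlapped in a narrow range, and the difference was not called (log2 fold change -0.14 ± 0.07 SE, 95% interval -0.31 to 0.04, adjusted p = 0.180). Hsf2, a related factor known from development and from proteasome inhibition, was at 41.8, 44.7 and 47.9 in control and 33.7, 35.3 and 34.0 in fenofibrate. All fenofibrate libraries lay below all controls, and Hsf2 fell 1.31-fold (log2 -0.38 ± 0.07, adjusted p = 0.00412). Hsf4, best known from the lens, was not called (log2 -0.02 ± 0.10, adjusted p = 0.898).

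The cytosolic HSP90 pair were among the most abundant chaperone transcripts. Per length, in CPM per kilobase of merged exon, the control levels were 1027 for Hsp90ab1, 863 for Hsp90aa1, 754 for Hspd1, 349 for Hspa8, 267 for Hspe1 and 220 for Hspa9. In fenofibrate the same levels were 876, 786, 651, 297, 337 and 213, so that Hspe1 stood above Hspa8 in mean, though their spread overlapped. The order depends on the length used: in the authors' FPKM, whose implied length was 0.704 to 2.64 times the merged exon length over 64 members, control means were 717 for Hspd1, 532 for Hsp90ab1 and 516 for Hsp90aa1. All members together took up 1.59% ± 0.024 (SD, n = 3) of a control library and 1.44% ± 0.036 of a fenofibrate library. No fenofibrate library reached the lowest control, and the HSP90 pair, which held 0.647% ± 0.0109 and 0.572% ± 0.0290, supplied about as much of the decrease as all other members. These shares and the levels per length use library totals, not TMM, so part of each decrease depends on the scaling. The TMM factors were 1.015 to 1.022 in control and 0.979 to 0.984 in fenofibrate. With TMM, mean Hspa9 was 931 normalised CPM in control and 935 in fenofibrate.

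**Figure D2:**
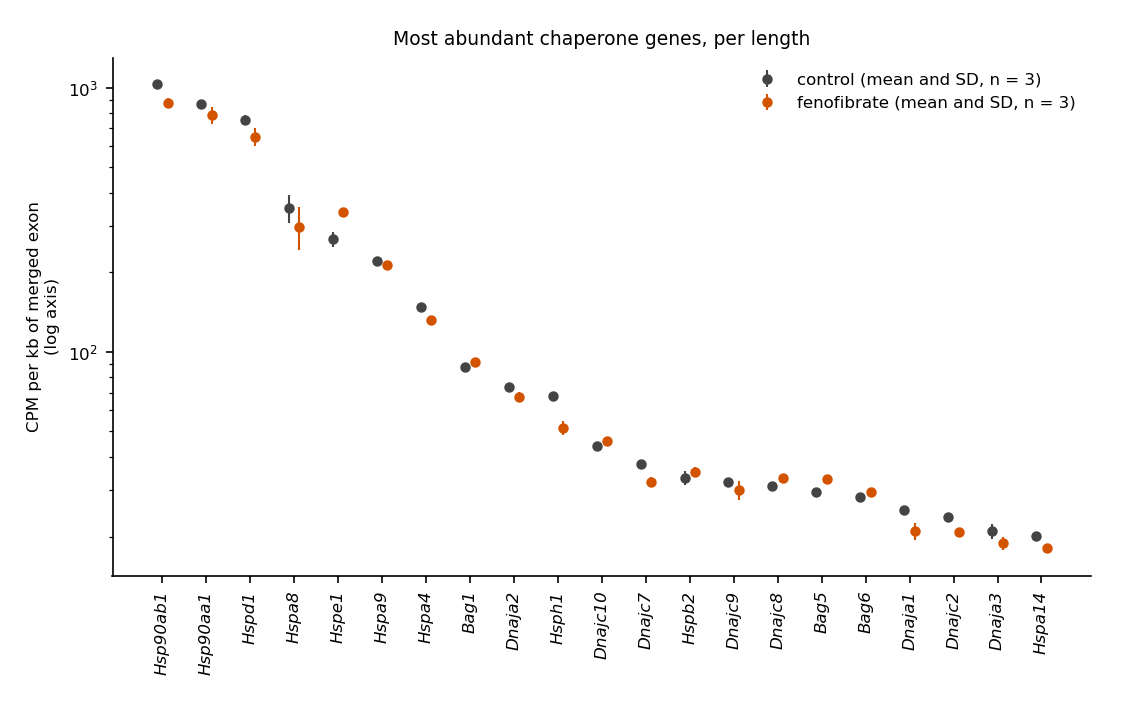
Level per length (CPM per kilobase of merged exon, log axis) of the most abundant members, as mean and SD of 3 libraries in control and fenofibrate. Hsp90ab1 was highest in both groups, at 1027 and 876, and Hspe1 was higher in fenofibrate, at 337 against 267.

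Hsp90ab1, the constitutive HSP90, was at 3062, 2920 and 3093 normalised CPM in control and 2732, 2554 and 2757 in fenofibrate. The groups did not overlap, and the gene fell 1.13-fold (log2 -0.17 ± 0.04, adjusted p = 0.0114). Hsp90aa1, the stress-inducible HSP90, was at 3225, 3363 and 3415 in control and 3427, 2992 and 3040 in fenofibrate. Fenofibrate replicate 1 was the highest of all 6, and the difference was not called (log2 -0.08 ± 0.05, 95% interval -0.21 to 0.05, adjusted p = 0.275). Without that library Hsp90aa1 was called lower (log2 -0.14, adjusted p = 0.0239).

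Of 7 tested HSP70 genes, 1 fell and 0 rose (14.3% called, against 39.1% of all genes tested). Hspa8, the constitutive cytosolic HSP70 that carries most housekeeping folding, was at 1455, 1299 and 1668 in control and 1507, 1367 and 1043 in fenofibrate. Fenofibrate replicate 3 was lowest and the groups overlapped (log2 -0.18 ± 0.14, 95% interval -0.50 to 0.15, adjusted p = 0.352). The mitochondrial HSP70 Hspa9 was nearly level, at 938, 923 and 933 against 965, 940 and 899 (log2 0.01 ± 0.04, adjusted p = 0.919).

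The stress-inducible HSP70 pair Hspa1a and Hspa1b, the textbook reporters of a heat shock response, had few counts in every library. Hspa1b had 26, 20 and 30 raw counts in control and 13, 20 and 21 in fenofibrate, and Hspa1a had 1, 0 and 0 against 2, 0 and 2. Hspa1b was not called (log2 -0.49 ± 0.27, 95% interval -1.12 to 0.14, adjusted p = 0.192), and Hspa1a did not pass the filter on low counts (log2 1.68, adjusted p = 0.447 without the filter). The pair are near-identical copies, so reads may be split between them. Reads that match both may also have been dropped, which the sources do not say, so the true level may be higher. Summing the counts would not restore such reads. With their counts summed the log2 fold change was -0.40 ± 0.26 (adjusted p = 0.254).

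Hspa12b (chr2:131127280-131146321), a distant HSP70 relative best known from endothelial cells, had the largest fall of any tested member. It was at 14.5, 10.8 and 12.8 in control and 6.12, 5.45 and 5.35 in fenofibrate, and the groups were far apart. The fall was 2.25-fold (log2 -1.17 ± 0.14, adjusted p = 0.000685). Of 6 endothelial markers, Cdh5, Kdr, Tek, Erg and Cldn5 were at 0 in every library and the sum of all 6 was 0.294 to 0.662 CPM in control and 0.278 to 0.544 CPM in fenofibrate. The other HSP70 genes Hspa2, Hspa13 and Hspa14 had log2 fold changes of -0.07, -0.05 and -0.09 and were not called.

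The 3 HSP110 genes, nucleotide exchange factors for HSP70 that also hold unfolded proteins, were all called, in opposite directions. Of all genes tested, 39.1% were called. Hsph1, the heat-inducible member, was at 499, 487 and 467 in control and 367, 369 and 409 in fenofibrate, and fell 1.27-fold without overlap (log2 -0.34 ± 0.05, adjusted p = 0.00174). Hspa4l was at 98.3, 97.8 and 103 in control and 133, 128 and 142 in fenofibrate, and rose 1.34-fold (log2 0.43 ± 0.05, adjusted p = 0.000771). Hspa4, the most abundant of the family, fell 1.08-fold (adjusted p = 0.0415), a call that was kept in 5 of the 13 alternatives and by the analysis without fenofibrate replicate 3 among those that left out a library (adjusted p from 0.0274 to 0.111).

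BAG proteins bind the HSP70 ATPase domain and send its clients to different fates. Bag3, which works with small heat shock proteins in selective autophagy, was at 49.8, 50.5 and 47.9 in control and 76.8, 66.7 and 60.8 in fenofibrate. The lowest fenofibrate library was above the highest control, and Bag3 rose 1.38-fold (log2 0.46 ± 0.09, adjusted p = 0.00509). Bag2, an inhibitor of the chaperone-linked ubiquitin ligase CHIP, was at 31.0, 28.5 and 30.5 in control and 21.4, 23.9 and 23.0 in fenofibrate, and fell 1.32-fold (log2 -0.40 ± 0.08, adjusted p = 0.00528). Bag5 rose 1.17-fold (adjusted p = 0.0101) and Bag6, which guides tail-anchored membrane proteins, 1.08-fold (adjusted p = 0.0379). The Bag6 call was lost whichever of the 6 libraries was left out (adjusted p from 0.0585 to 0.120). Bag1, Bag4 and the exchange factor Hspbp1 were not called, with log2 fold changes of 0.11, -0.17 and -0.17. Bag2, Bag5, Bag6, Hspa4, Hspa4l and the genes named below with less than a 1.5-fold difference were chosen after their values were seen, except for Dnaja1, Dnajb1, Hspb1, Hspd1 and Hspe1.

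Small heat shock proteins hold partly unfolded proteins for refolding by HSP70. Hspb6 (Hsp20, chr7:30552178-30555443), best known from muscle, was at 7.20, 7.53 and 7.98 in control and 17.2, 14.9 and 14.5 in fenofibrate. Every fenofibrate value was well above every control, and Hspb6 rose 2.05-fold (log2 1.04 ± 0.11, adjusted p = 0.000347). Its exons share 122 bases with Proser3 on the opposite strand, which fell, and the ratio of Hspb6 to Proser3 counts was 0.517 ± 0.0550 in control and 2.00 ± 0.164 in fenofibrate.

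Hspb8 (Hsp22), the usual partner of Bag3, was at 14.5, 18.6 and 16.6 in control and 22.9, 24.0 and 20.0 in fenofibrate, and rose 1.34-fold (log2 0.43 ± 0.12, adjusted p = 0.0234). Hspb11, an intraflagellar transport protein (Ift25) that shares the fold of the family, was at 7.35, 7.60 and 9.50 against 13.0, 11.7 and 10.3, and rose 1.43-fold (adjusted p = 0.0253). Neither gene's groups overlapped, but the adjusted p reached 0.0729 for Hspb8 and 0.0824 for Hspb11 when a library was left out. Control replicate 1 and fenofibrate replicates 1 and 2 each decided both calls, as did control replicate 3 for Hspb8 and control replicate 2 for Hspb11.

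Hspb7 (chr4:141420779-141425311), known from heart muscle, had 2, 2 and 6 raw counts in control and 10, 16 and 14 in fenofibrate. Its 3.90-fold rise (log2 1.97 ± 0.47, adjusted p = 0.0131) rests on these few counts, and its 95% interval ran from 0.88 to 3.05 on the log2 scale. The adjusted p was 0.0528 with DESeq2 and 0.0506 without control replicate 1, and the log2 fold change ran from 1.69 without control replicate 2 to 2.68 without control replicate 3. With limma it was 0.51 on log2(FPKM + 0.5) and 1.255 on log2(FPKM + 0.1). The lowest fenofibrate library was above the highest control.

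Hspb1 (Hsp25), the heat-inducible member with 2 core matches in the window shown above, was at 4.32, 5.44 and 4.64 in control and 4.15, 5.60 and 4.86 in fenofibrate. The groups lay on top of each other (log2 0.02 ± 0.17, 95% interval -0.38 to 0.42, adjusted p = 0.936), and the sign of this value turned under 6 of the alternatives. Hspb2 was not called (log2 0.13, adjusted p = 0.227). It shares 252 exon bases with Cryab on the opposite strand, the αB-crystallin gene, which encodes another small heat shock protein. Cryab, outside the symbol rule, was at 121, 128 and 135 in control and 217, 309 and 220 in fenofibrate, and rose 1.94-fold (log2 0.96 ± 0.13, adjusted p = 0.00128). The 6 tested small heat shock proteins within the rule summed with their untested relatives to 0.00659% of a control library and 0.00835% of a fenofibrate library.

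**Figure D3:**
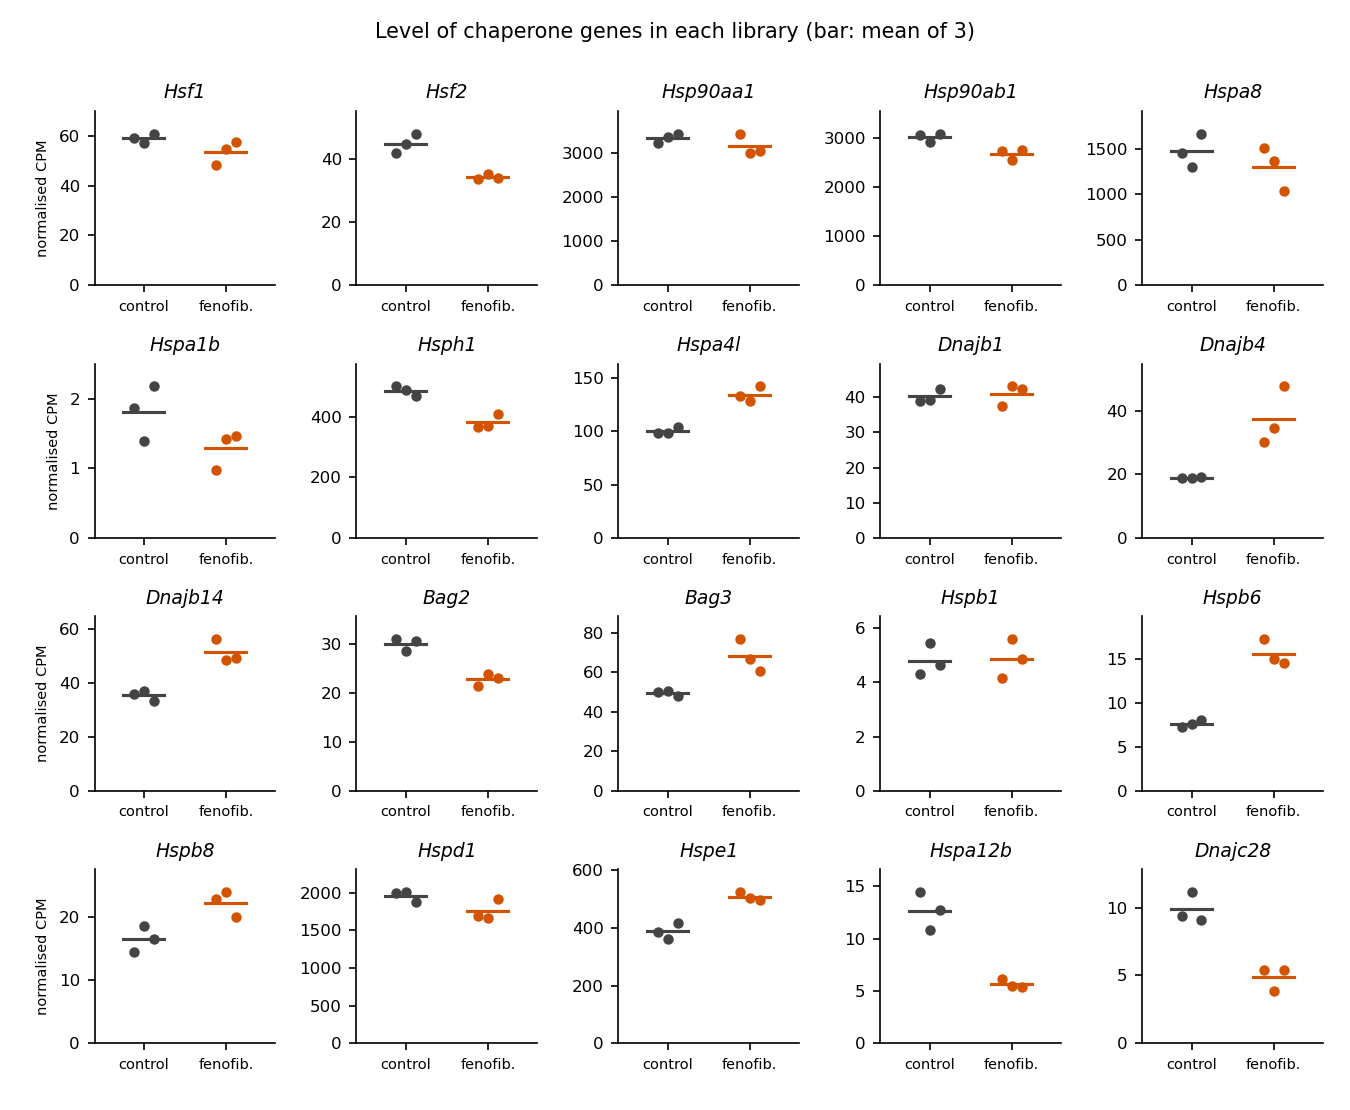
Normalised CPM of 20 members in each library (points, y axes from 0, control in grey and fenofibrate in orange) with the mean of 3 as a bar. Dnajb4, Dnajb14, Bag3, Hspb6 and Hspe1 stand higher in every fenofibrate library and Hsf2, Hsph1, Bag2, Hspa12b and Dnajc28 lower, while Hspa8, Hspa1b, Dnajb1 and Hspb1 overlap.

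Among class A J proteins, the closest relatives of bacterial DnaJ, Dnaja1 was at 208, 221 and 214 in control and 171, 197 and 186 in fenofibrate. The groups did not overlap and Dnaja1 fell 1.16-fold (log2 -0.22 ± 0.06, adjusted p = 0.0220). Its call was lost without control replicate 2, control replicate 3 or fenofibrate replicate 1, with adjusted p from 0.0124 to 0.0713 over the 6 analyses that left out a library. Its exons share 608 bases with Smu1 on the opposite strand, which was not called. Dnaja2, Dnaja3 and Dnaja4 had log2 fold changes of -0.07, -0.10 and 0.09 and were not called.

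Class B J proteins share the glycine-rich linker of Dnajb1 (Hsp40), the canonical heat-inducible partner of HSP70. Dnajb1 itself was at 39.0, 39.3 and 42.4 in control and 37.4, 43.1 and 42.4 in fenofibrate. Fenofibrate values lay on both sides of the controls (log2 0.03 ± 0.08, 95% interval -0.15 to 0.20, adjusted p = 0.815), and the sign turned under 4 alternatives. Its close relative Dnajb4 (Hlj1, chr3:152178511-152210302) was at 18.8, 18.9 and 19.1 in control and 30.1, 34.6 and 47.7 in fenofibrate. The controls were tight and the treated libraries spread widely above them, and Dnajb4 rose 1.98-fold (log2 0.98 ± 0.16, adjusted p = 0.00265). Dnajb5 (chr4:42949814-42959425), a close relative of Dnajb4, was at 8.93, 8.23 and 7.54 against 14.5, 14.2 and 10.6, and rose 1.59-fold (log2 0.66 ± 0.15, adjusted p = 0.0102).

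Dnajb12, Dnajb14 and Dnajc18 are related J proteins of the ER membrane that face the cytosol and help to clear misfolded membrane proteins. Dnajb14 was at 36.0, 36.8 and 33.2 in control and 56.1, 48.3 and 49.2 in fenofibrate, a 1.45-fold rise (adjusted p = 0.00172). Dnajb12 was at 41.1, 41.1 and 39.5 against 49.8, 50.1 and 50.7, and rose 1.24-fold (adjusted p = 0.00345). Dnajc18 was at 47.4, 51.3 and 50.9 against 62.2, 67.7 and 66.9, and rose 1.32-fold (adjusted p = 0.00211). All 3 rose without overlap and kept their calls under all 13 alternatives. Dnajb6, a suppressor of protein aggregation whose promoter has the longer element, was at 63.3, 63.0 and 64.8 in control and 77.5, 79.1 and 66.1 in fenofibrate. No libraries overlapped, but the test missed the threshold (log2 0.22 ± 0.08, adjusted p = 0.0523). It passed with RLE scaling (adjusted p = 0.0499) and without fenofibrate replicate 3 (adjusted p = 0.00785). Dnajb2 and Dnajb13 were not called, with log2 fold changes of -0.19 and 0.08.

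Class C J proteins keep only the J domain and otherwise differ in structure and place of work. Of 24 tested, 4 rose, 2 fell and 18 were not called (2 to 3 higher and 1 to 3 lower when a library was left out), and the median log2 fold change was -0.01. The share called was 25%, against 39.1% of all genes tested. Dnajc28 (chr16:91614254-91619026) was at 9.37, 11.2 and 9.07 in control and 5.44, 3.82 and 5.42 in fenofibrate, and fell 2.02-fold without overlap (log2 -1.01 ± 0.17, adjusted p = 0.00311). Dnajc4 (chr19:6987911-6992503) was at 6.34, 6.49 and 6.09 against 8.30, 10.3 and 9.86, and rose 1.51-fold (log2 0.59 ± 0.13, adjusted p = 0.00855). Both are low-level transcripts whose groups were clearly apart.

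Dnajc27, a Rab-like GTPase with a J domain, rose 1.27-fold (adjusted p = 0.0357), and Dnajc8, found with the spliceosome, rose 1.11-fold (adjusted p = 0.0296). Dnajc7, which binds both HSP70 and HSP90, fell 1.12-fold (adjusted p = 0.0358). These calls were kept in 4, 2 and 6 of the 13 alternatives, with adjusted p up to 0.0977, 0.0870 and 0.106 when a library was left out. Dnajc8 lost its call whichever of the 6 libraries was left out. Dnajc27 kept its call only without control replicate 1, and Dnajc7 only without fenofibrate replicate 3. The uncalled class C genes ranged in log2 fold change from -0.20 for Dnajc24 to 0.19 for Dnajc14. They include Dnajc5 (log2 -0.01), the cysteine string protein of secretory vesicles, Dnajc10 (0.11, adjusted p = 0.0595), an ER reductase, and the mitochondrial genes Dnajc11, Dnajc15, Dnajc19 and Dnajc30 (0.01, 0.01, 0.13 and -0.03).

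The mitochondrial chaperonin is built from Hspd1 (Hsp60), which forms the folding chamber, and Hspe1 (Hsp10), its lid. They are transcribed in opposite directions from neighbouring starts on chromosome 1, Hspd1 at chr1:55077835-55088243 and Hspe1 at chr1:55088132-55091307, with 112 shared exon bases. Hspe1 was at 384.6, 362.3 and 415.0 in control and 523.9, 502.1 and 494.3 in fenofibrate, and rose 1.31-fold without overlap (log2 0.39 ± 0.05, adjusted p = 0.00125). Hspd1 was at 1988, 2009 and 1873 in control and 1689, 1658 and 1918 in fenofibrate. Fenofibrate replicate 3 lay among the controls, and Hspd1 was not called (log2 -0.16 ± 0.06, 95% interval -0.29 to -0.02, adjusted p = 0.0718).

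The ratio of Hspe1 to Hspd1 counts was 0.193, 0.180 and 0.222 in control and 0.310, 0.303 and 0.258 in fenofibrate, so the lid transcript was higher relative to the chamber transcript in every treated library. Hspd1 crossed the threshold in several other analyses. The value was -0.23 (adjusted p = 0.00694) without fenofibrate replicate 3, -0.21 (adjusted p = 0.0250) with library totals and -0.21 (adjusted p = 0.0336) with limma on log2(FPKM + 0.5). A processed pseudogene, Hspd1-ps3 (chr11:41498737-41500458), held 22.2% of the summed counts of the pair and fell as well (log2 -0.15, adjusted p = 0.0158). Summing the pair, an analysis added after seeing the data, gave -0.16 ± 0.05 (adjusted p = 0.0491).

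The filter on low counts removed 11 members, of which Hspa12a, Dnajb3, Dnajb8 and Hspb3 had 0 counts in all 6 libraries and could not be tested. Hspa1l had 4, 2 and 4 counts in control and 0, 2 and 2 in fenofibrate, and Hspa1a is described above. Dnajb7, Dnajc5b, Dnajc5g, Dnajc6 and Hspb9 had from 0 to 3 counts per library. Without the filter none of these 7 was called, as for Hspa1l (log2 -1.25, adjusted p = 0.356), and at this depth no difference was detectable. Hspbap1, taken in by its symbol, was not called (log2 -0.04, adjusted p = 0.869). Because the strand setting of the counting is not given, shared exon bases matter for 29 members, of which 24 were tested and 3 rose and 3 fell. Among the 49 members with no exon base shared with another gene, 43 were tested, 14 rose and 6 fell. Over all genes tested, 19.5% were called higher and 19.5% lower. Whether shared bases bear on the calls was not tested.

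Genes that work with these chaperones but lie outside the symbol rule were read from lists. Of 29 tested HSP90 cochaperones, 13 fell and 3 rose, with a median log2 fold change of -0.14 against -0.0021 for all genes and with 19.5% of all genes called lower. Ruvbl1 and Ruvbl2, ATPases that work with HSP90 in assembling large complexes, fell 1.45-fold (adjusted p = 0.000114) and 1.42-fold (adjusted p = 0.000901). Chordc1 (Morgana), an HSP90-binding protein, was at 167, 165 and 164 in control and 110, 113 and 124 in fenofibrate, and fell 1.43-fold (adjusted p = 0.000345). Stip1 (Hop), which bridges HSP70 and HSP90, fell 1.12-fold (adjusted p = 0.0106). In the other direction, Fnip1 and Fnip2, partners of folliculin that slow the HSP90 ATPase, rose 1.53-fold (adjusted p = 0.000252) and 1.37-fold (adjusted p = 0.000286).

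A list of 26 tested classical heat-induced genes had 9 higher and 8 lower (65.4% called, against 39.1% of all genes tested). Of these 26 genes, 13 are members of the symbol rule. Beside Cryab and Dnajb4, Zfand2a, a heat- and arsenite-inducible zinc finger gene, rose 1.93-fold (adjusted p = 0.0219), with control replicate 2 at 11.4 and the other control libraries at 25.1 and 24.4. Chordc1, Hsph1 and Dedd2 fell, the last with adjusted p up to 0.114 when a library was left out. Zfand2a lost its call without fenofibrate replicate 1 or 3 (adjusted p up to 0.0591). Hsbp1, which binds the trimerization domain of Hsf1, rose 1.26-fold (adjusted p = 0.00156). It comes from a separate list of 5 heat shock factor genes and regulators outside the rule, of which only 1 was tested.

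The cytosolic chaperonin TRiC, which folds actin and tubulin, had 6 of 8 subunits lower and 0 higher, and prefoldin, which delivers clients to it, had 2 of 6 higher and 1 lower. The shares called were 75% for TRiC and 50% for prefoldin, against 39.1% of all genes tested (19.5% lower). Cct6a fell 1.30-fold (adjusted p = 0.00243) and Cct4 1.27-fold (adjusted p = 0.00159), whereas Pfdn5 rose 1.17-fold (adjusted p = 0.00772) and Pfdn6 fell 1.21-fold (adjusted p = 0.0406, from 0.0533 to 0.118 when a library was left out). Of the 18 genes of TRiC, prefoldin and related factors, 7 fell in all, and 3 to 6 did when a library was left out. Other HSP70 cochaperones had 2 of 12 higher and 3 lower (41.7% called), which is near the share of all genes. Stub1, the ubiquitin ligase CHIP, rose 1.16-fold (adjusted p = 0.0173, up to 0.0566 when a library was left out). The ubiquitin-binding Ubqln4 fell 1.34-fold (adjusted p = 0.000302).

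Among chaperones of the organelles, 33.3% of the mitochondrial list and 53.3% of the ER list were called, against 39.1% of all genes tested. Of 15 mitochondrial chaperones and proteases outside the rule, 4 rose, among them Tomm20 (1.27-fold, adjusted p = 0.00121) and Hscb (1.30-fold, adjusted p = 0.0247), and Clpp fell 1.24-fold (adjusted p = 0.0284). The calls of Hscb and Clpp were each lost in 4 of the 6 analyses that left out a library, with adjusted p up to 0.0764 and 0.0850. Of 15 ER chaperones 3 rose and 5 fell. Sil1, the exchange factor of the ER HSP70, rose 1.54-fold (adjusted p = 0.000853), and the ER J protein gene Dnajb9 rose 1.40-fold (adjusted p = 0.000771). That HSP70, Hspa5 (BiP), was at 2070, 1123 and 2142 in control and 1023, 1020 and 1196 in fenofibrate. It fell 1.65-fold (adjusted p = 0.0355), but control replicate 2 lay among the treated libraries, and leaving out any library but that one ended the call (adjusted p 0.000472 without it and up to 0.109 without another). Pdia4 and Sdf2l1 also fell and kept their calls under all 13 alternatives. Their adjusted p reached 0.00169 and 0.0472 when a library was left out.

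**Figure D4:**
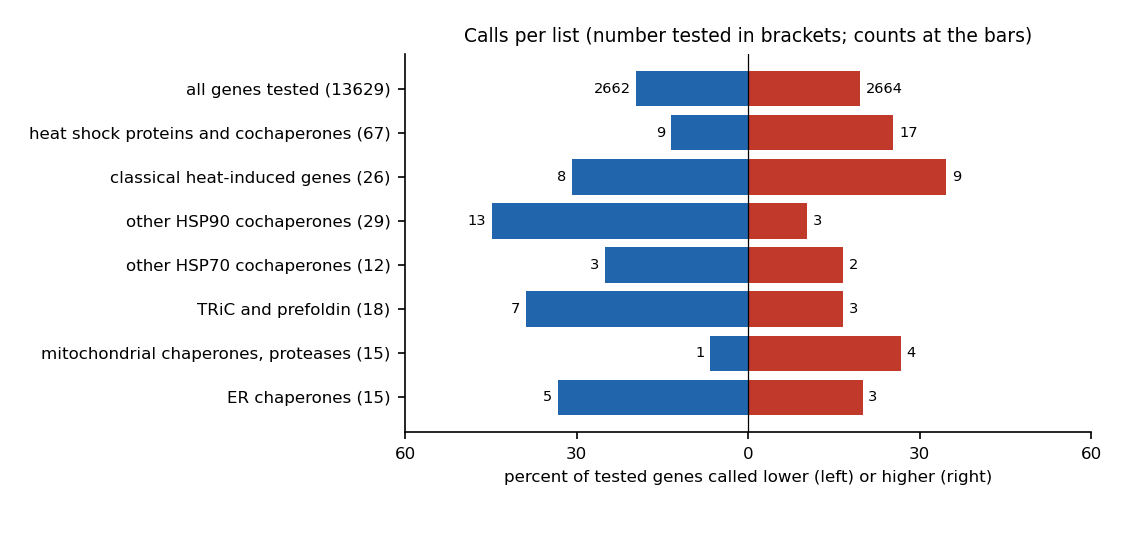
Percent of tested genes called lower (left, blue) or higher (right, red) with fenofibrate for all genes, the heat shock proteins and cochaperones, and related lists, with the number of called genes at each bar. The HSP90 cochaperones outside the symbol rule have 13 lower and 3 higher genes, and the members 9 lower and 17 higher.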

How the data were processed

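Bulk RNA-seq of 3 control and 3 fenofibrate libraries was analysed from one table that gives raw counts per gene and FPKM, both made and deposited by the authors. Per the submitters' processing notes, HISAT2 2.0.4, StringTie 1.3.0 and GRCm39 were used, with no roles given. The counting tool, its strand setting and its treatment of reads that match several genes are not given in the sources used here. The table's coordinates match GRCm38, not the build in the notes: GENCODE M21 holds 99.8% of the IDs, with identical start and end for 98.7% of those.

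Counts were fitted over the whole table in edgeR 4.0.16 (R 4.3.3) with filterByExpr, TMM and glmQLFTest, 3 libraries a group and no covariate, with a threshold of 0.05 on p-values adjusted by Benjamini-Hochberg. The script was tested on simulated data. Alternatives used DESeq2 1.42.0, RLE scaling, library totals, no filter, a replicate block, each library left out, and limma 3.58.1 on log2(FPKM + 0.5) and log2(FPKM + 0.1) of the deposited FPKM.

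The members, role classes and related lists were chosen with earlier results of these data known. Named were 14 set members, every called member with a difference of 1.5-fold or more, up to 3 called genes per direction from each related list (some are left out here), and the members that did not pass the filter. Exon overlaps and lengths came from GENCODE M21. Promoter sequences came from RefSeq. Protein sequences were not used here.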

Additional observations from a re-analysis of the deposited data

How the results depend on the processing

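Members called higher numbered 12 to 18 and members called lower 6 to 14 over the 13 alternatives, against 17 and 9. Leaving out a library gave 12 to 15 higher and 6 to 11 lower. With library totals only, 14 were lower. Any pairing of the samples by the replicate numbers of the titles is weak at most. Correlations of same-numbered deviations were 0.030, 0.013 and 0.013, and those of differently numbered ones ran from -0.021 to 0.0074. With the number as a replicate block 14 members were called higher and 8 lower.

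Among related lists, higher HSP70 cochaperones numbered 1 with DESeq2, with library totals only and with the replicate block, and 0 to 1 when a library was left out. The counts for TRiC and prefoldin when a library was left out were 1 to 3 higher and 3 to 6 lower. Mitochondrial genes called lower were 0 without the filter and 0 to 1 when a library was left out, and ER chaperones called lower were 3 without the filter and 3 to 5 when a library was left out. Dropping the filter adds genes to the adjustment and leaving out a library removes a replicate. For the other settings the cause was not tested.

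The log2 fold change of Dnajb1 turned to -0.029 with library totals only, -0.030 with limma on log2(FPKM + 0.5) and -0.031 on log2(FPKM + 0.1), and ranged from -0.011 to 0.087 when a library was left out. That of Hspb1 turned to -0.033, -0.032 and -0.037 under the same settings and ranged from -0.090 to 0.12 when a library was left out. Over the 50 genes named by rule, a part of the genes printed, and 652 alternative values, 562 kept direction and call, 74 lost the call, 6 gained one and 10 changed sign. Among all 67 tested members, 16 changed sign under at least 1 alternative, and 0 of these were called; Hspa9 did so under 5 and Hsf4 under 3.

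Low counts limit the precision for Hspa1b, Hspb7, Dnaja4, Dnajb13 and the 11 members that did not pass the filter. The replicates are few, and p-values weigh the difference between groups against the spread among libraries of the same group.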

Other observations

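Some members lie head to head with an unrelated gene, and these neighbours were looked at after their values were seen. Dnajb4, which rose (log2 fold change 0.98), starts 120 bases from Fubp1, a regulator of Myc transcription, whose counts were 3260, 3477 and 3095 in control and 2324, 2421 and 2577 in fenofibrate. Fubp1 fell (log2 -0.42, adjusted p = 0.000322). Hspb6 rose (log2 1.04) and its first exon overlaps that of Proser3, which had 214, 213 and 191 counts in control and 115, 97 and 113 in fenofibrate and fell (log2 -0.92, adjusted p = 0.000827). Hspb11 rose (log2 0.51) and starts 61 bases from Lrrc42, which fell (log2 -0.59, adjusted p = 0.00949). In each pair the groups of the 6 libraries were apart for both genes.

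Of protein-coding pairs that start within 1000 bases of each other on opposite strands, 19 hold a member and 15 of these had both genes tested. In 3 of these pairs both genes were called, and these are the 3 above, all in opposite directions. Over the whole table, 915 such pairs had both genes tested, 123 had both called and 55 of these (44.7%) moved in opposite directions.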
